A study of Sus scrofa with 6 samples.

Results

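Galectins and the hyaluronan receptor CD44, genes of the sugar coat of the cell surface, were followed in the endometrium of Erhualian sows. The members were 7 genes fixed by name: the transmembrane mucins MUC1 and MUC4, the galectins LGALS1, LGALS3, LGALS8 and LGALS9, and CD44. Of these 7, 4 matched a row among the 14262 genes of the expression table: LGALS1, LGALS3, LGALS8 and CD44. MUC1, MUC4 and LGALS9 matched no row through the table that pairs Ensembl pig identifiers with symbols, which named 11977 of the rows, and are not analysed here.

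Endometrium, the lining of the uterus, was taken on day 12 of gestation from 3 high prolific and 3 low prolific sows of this Chinese pig breed, and its RNA was sequenced, with 1 library for each numbered sow. Sows are called high 1 to high 3 and low 1 to low 3 by group and label number. By parity, that is by litters already borne, high 1 was at 5 and both high 2 and high 3 at 8, whereas low 1 and low 2 were at 7 and low 3 at 5, so that parity 8 occurred in high prolific sows alone. The series title sets litter size beside calcium ion concentration, and the litter sizes and calcium levels themselves are not analysed here.

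The glycocalyx is the layer of glycoproteins and glycolipids on the outer face of a cell, and at the uterine surface it is the first structure that the conceptus meets. Transmembrane mucins extend far above the membrane and can mask adhesion molecules, galectins are soluble lectins that bind galactose-bearing glycans and cross-link them, and CD44 binds hyaluronan, a long matrix polysaccharide, as well as osteopontin. In the pig the conceptus elongates around this day and attaches to the luminal epithelium without invading it.

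The values are normalized read counts per gene, set by the authors' normalization, so the column sums (22663087 to 24270245) are not depths and the depth behind each value is unknown. The groups were compared with limma, which moderates the spread of each gene by that of all genes, on log2(value + 1), with Benjamini-Hochberg adjustment of the p-values over all genes. A log2 fold change is the high prolific minus the low prolific mean, each fold is 2 to that power, and both understate the change of low genes. By limma 0 of 14262 genes (0%) passed at an adjusted p under 0.05, the smallest adjusted p being 0.493, and 1129 (7.92%) had an unadjusted p under 0.05. The 3 high prolific sows all lay on one side of the 3 low prolific sows in 1926 genes, 13.5% of the table, 7.18% higher and 6.32% lower in high prolific sows. An exact permutation test of 3 against 3 sows has 20 assignments and cannot give a two-sided p below 0.1. The library has RNA of all cells of the tissue piece, so fewer cells of a type and less RNA per cell cannot be told apart. The labelled tissue held its defining markers: 10 of 11 epithelial and 9 of 10 stromal fibroblast markers were measured, and no value in any sow was under 886.9 for the former or 1509 for the latter.

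CD44 lay higher and LGALS1 lower in high prolific sows, by 1.42-fold and 1.43-fold, while the group means of LGALS3 and LGALS8 differed by 1.06-fold and 1.05-fold, both lower in high prolific sows. None of the 4 passed the test over all genes, and the groups were apart in 0 of the 4, against 13.5% of all genes.

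LGALS1 encodes galectin-1, a small lectin with a single carbohydrate-binding domain that forms dimers and is made mainly by stromal, endothelial and smooth muscle cells. The high prolific sows 1 to 3 had 4206, 2774 and 2905, and the low prolific sows 1 to 3 had 3876, 5658 and 4528. High 2 and high 3 were the lowest of the 6 sows and low 2 and low 3 the highest, with high 1 above low 1 between them. The means, high before low prolific, were 3295 ± 792 and 4687 ± 901.5 (SD, n = 3 each), a log2 fold change of -0.52 ± 0.21 (SE, 95% confidence interval -1.03 to -0.0031). The unadjusted p was 0.0490 and the adjusted p 0.629 with limma, and the exact permutation p was 0.2. With low 2 and low 3 left out it was -0.26.

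LGALS3 encodes galectin-3, which carries 1 such domain behind a long flexible tail and is abundant in epithelia and macrophages. Its values were 17194, 11584 and 10855 in high 1 to high 3 and 15296, 14764 and 11540 in low 1 to low 3. High 1 was the highest of all sows and high 3 the lowest, so that the high prolific group spanned the whole range of the low prolific one. The means were 13211 ± 3469 and 13866 ± 2033 (SD, n = 3 each). The log2 fold change was -0.09 ± 0.21 (SE), with a 95% interval of -0.61 to 0.43 that covers differences in either direction (limma adjusted p = 0.927, exact permutation p = 0.9). It was 0.036 without high 3 and -0.30 without high 1.

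LGALS8 encodes galectin-8, whose 2 carbohydrate-binding domains sit in 1 chain and which also marks damaged vesicles inside cells. It varied least of the 4, from 1887 in high 2 to 2398 in low 1, a ratio of 1.27 between the highest and the lowest sow, against a median ratio of 1.57 over all genes. The other values were 2147 in high 1, 2005 in high 3, 1949 in low 2 and 2007 in low 3, so that apart from low 1 the groups were interleaved. The log2 fold change was -0.07 ± 0.12 (SE, 95% interval -0.35 to 0.21, limma adjusted p = 0.887, exact permutation p = 0.6). It was 0.024 without low 1 and -0.25 with low 2 and low 3 left out. The same ratio of highest to lowest sow was 1.58 in LGALS3, 2.00 in CD44 and 2.04 in LGALS1.

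CD44 is the main cell surface receptor for hyaluronan and is carried by leukocytes, stromal cells and many epithelia. It was at 2729, 1974 and 2306 in high 1 to high 3 and at 1484, 1361 and 2153 in low 1 to low 3. High 1 and high 3 stood above all low prolific sows, and low 3 lay above high 2, which is the overlap between the groups. The means were 2336 ± 378.5 and 1666 ± 426.1 (SD, n = 3 each), a log2 fold change of 0.50 ± 0.21 (SE, 95% confidence interval -0.0001 to 1.01). The unadjusted p was 0.05004 and the adjusted p 0.631 with limma, and the exact permutation p was 0.2. CD44 is spliced into many isoforms, which a count per gene does not separate.

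**Figure D1:**
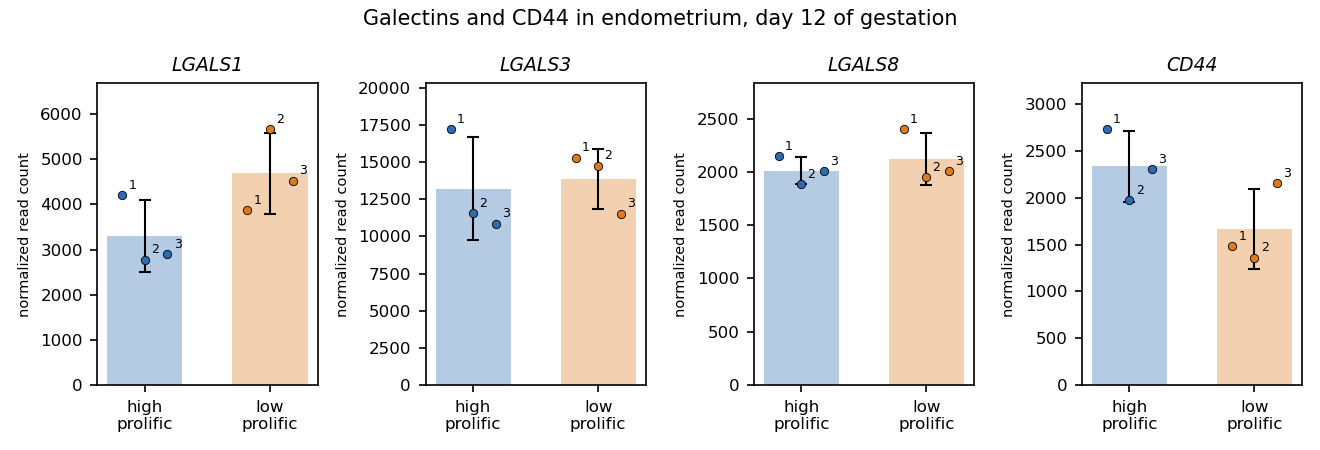
Each panel plots 1 matched member as its normalized read count on a linear axis that starts at 0. Blue is high prolific and orange low prolific; a bar is the mean over 3 sows with its SD, and each numbered point is 1 sow. In each panel the groups overlap (CD44 2336 against 1666 on average, LGALS1 3295 against 4687).

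The opposite directions of LGALS1 and CD44 gave a ratio between them that did not overlap between the groups. The LGALS1 value divided by the CD44 value was 1.54, 1.41 and 1.26 in high 1 to high 3 and 2.61, 4.16 and 2.10 in low 1 to low 3. This ratio was chosen after the values were seen, and it is given with no test. A factor shared by all genes of a library cancels in it, and its size says nothing of which of the genes is the more abundant, since their lengths differ. The LGALS3 value divided by that of LGALS1 was between 3.74 and 4.18 in the high prolific sows and low 1 (3.95), and 2.61 and 2.55 in low 2 and low 3.

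The genes nearest to each member were found by the root mean square difference of log2 values over the 6 sows, after each gene was centred on its own mean. A gene at 0 on this measure would follow the member exactly, and 11336 genes with a symbol and a mean of at least 50 were compared. Nearest to LGALS1 were OTUB2 (0.053) and COL1A1, the alpha 1 chain of type I collagen (0.074), against a median of 0.41 over the genes compared. COL1A1 was at 196786, 132411 and 151246 in high 1 to high 3 and at 171738, 255612 and 211415 in low 1 to low 3, which is the same order of sows as that of LGALS1. Its distance was 0.29 after quantile normalization. Among the genes nearest to CD44 was AZIN2 (0.11), against a median of 0.41. AZIN2 was at 133.1, 96.9 and 114.3 in high 1 to high 3 and at 65.9, 54 and 103.2 in low 1 to low 3, so that, as for CD44, low 3 lay above high 2. PLEKHH1 (0.070) and TMEM241 (0.083) were nearest to LGALS3, and MGST3 (0.035) and NOP10 (0.040) to LGALS8, against medians of 0.32 and 0.23.

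Markers of other cells are given beside these values, and their part in them was not tested. Of 9 stromal fibroblast markers 7 lay lower in high prolific sows (median log2 fold change -0.28), with summed values of 509568 to 694869 in the high and 602791 to 814896 in the low prolific group, and that median was -0.13 without low 3 and -0.037 once low 2 was left out too. Of 6 endothelial markers 6 lay lower (median -0.46, summed 9001 to 13863 against 11820 to 21677), among them PECAM1 with 3201, 2356 and 2663 against 4211, 4834 and 6353. The endothelial median was -0.19 without low 3, -0.29 without high 3, -0.74 without low 1 and -0.0069 with low 2 and low 3 left out. Of 6 smooth muscle markers 5 lay lower (median -0.87, summed 21133 to 27963 against 21087 to 30516), and ACTA2, smooth muscle actin, was at 4131 ± 1212 against 7997 ± 1778 (SD, n = 3 each). Without high 2 the smooth muscle median was -0.40. Of 8 T and NK cell markers 7 lay higher (median 0.42, summed 812.6 to 1327 against 793.8 to 815.3), and of 10 macrophage and dendritic cell markers 3 (median -0.07, summed 7309 to 10032 against 8011 to 12363). The T and NK cell median was 0.22 without high 2. The mean centred level of these markers was -0.13, 0.50 and 0.12 in high 1 to high 3 and -0.20, -0.14 and -0.15 in low 1 to low 3. Of 5 neutrophil and mast cell markers 2 lay higher and 3 lower, with sums of 505.4 to 2051 in the high and 706.5 to 16841 in the low prolific group. The top sums, in low 2 and low 3, came mostly from S100A8 (5414 and 10857) and S100A12 (7533 and 5283). CSF3R was at 212.9 ± 150.7 against 137 ± 81.7 and KIT at 284.8 ± 68.8 against 283.4 ± 113.2 (SD, n = 3 each). Both are named after their values were seen. The 2 red blood cell markers HBB and ALAS2 summed to 623.8 to 2523 against 1691 to 7972. Epithelial markers lay higher in 5 and lower in 5 (median 0.0047, summed 77924 to 80615 against 65834 to 90683). Of 5 trophoblast markers measured 2 lay higher and 3 lower (median -0.17), with sums of 3579 to 4751 against 2428 to 3734. Most of each sum was GATA2, at 3949 ± 565 against 2600 ± 673.5 (SD, n = 3 each). ELF5 went the other way, at 41 ± 1.73 against 73.5 ± 38.1. No measured marker was at 0 in any sow, and none of these lists had a member past the adjusted threshold.

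**Figure D2:**
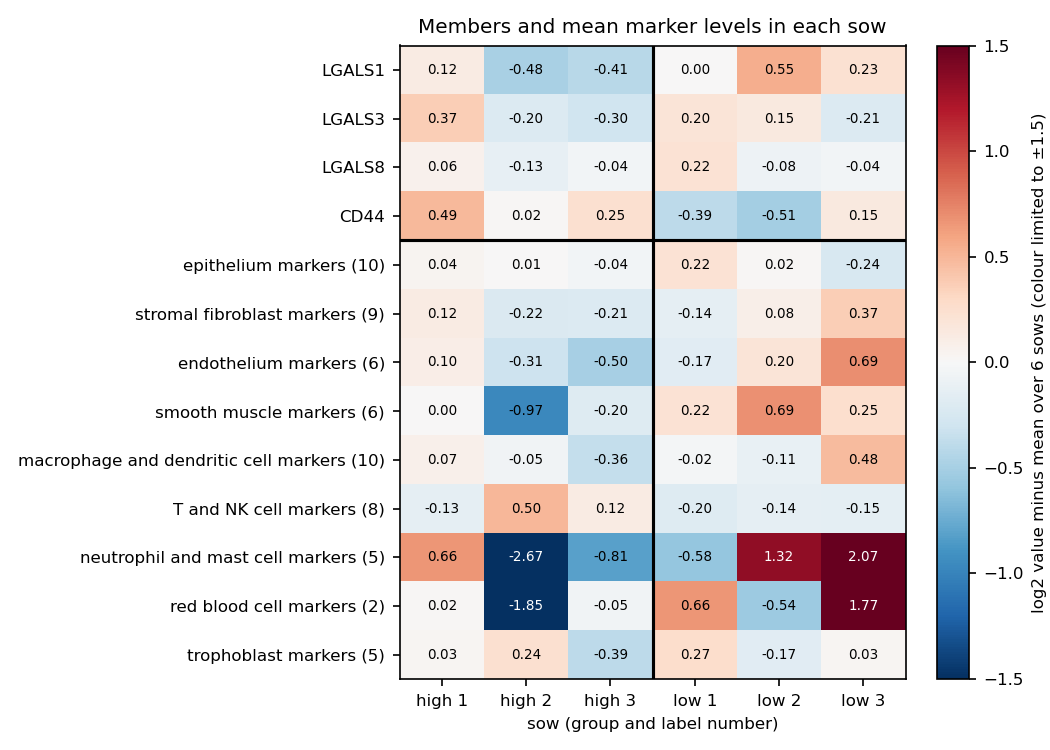
Log2 value of each matched member, and mean log2 value of each marker list (number of markers in brackets), minus its own mean over the 6 sows. Red is above and blue below that mean, colours stop at ±1.5, and the vertical line parts high from low prolific sows. The neutrophil and mast cell row reaches 2.07 in low 3 and the CD44 row 0.49 in high 1.

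CD44 acts with the enzymes that make and cut hyaluronan and with other proteins that hold it. Of 25 symbols listed for this system 16 matched a row, 6 higher and 10 lower in high prolific sows. The median log2 fold change was -0.02 against -0.0024 over all genes, and 0 passed the adjusted threshold. In 4 of the 16 all high prolific sows lay below all low prolific ones, against 6.32% of all genes, and in 0 above, against 7.18%. VCAN, versican, a large proteoglycan that binds hyaluronan, was at 1902, 1297 and 1577 in high 1 to high 3 and at 2706, 3861 and 3777 in low 1 to low 3. UGDH, which makes the UDP-glucuronate used for hyaluronan, was at 1480, 1420 and 1628 against 2098, 2075 and 1685. The other 2 of these 4 genes are named after their values were seen. HAS2, a hyaluronan synthase of the plasma membrane, was at 68.6, 38.6 and 68.4 against 79.3, 103 and 82. LYVE1, the hyaluronan receptor of lymphatic vessels, was at 247.9 ± 85.3 against 386.6 ± 67.4 (SD, n = 3 each). Among the 6 genes that lay higher was another synthase, HAS1, also named after its values were seen. HAS1 was at 111.5 ± 32.6 against 88.1 ± 21 (SD, n = 3 each), a log2 fold change of 0.32, with overlapping groups. STAB1, a scavenger receptor of endothelium and macrophages, was at 1528 ± 156.5 against 2095 ± 498.2, with high 1 (1708) above low 1 (1673). The log2 fold changes were -1.11 ± 0.20 for VCAN, -0.37 ± 0.12 for UGDH, -0.62 ± 0.29 for HAS2, -0.69 ± 0.31 for LYVE1 and -0.43 ± 0.18 for STAB1 (SE). Their adjusted p with limma lay between 0.619 and 0.654. With low 2 and low 3 left out STAB1 was at -0.14 on that scale (-0.25 without low 3 alone), and without high 2 HAS2 was at -0.35 and LYVE1 at -0.37.

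Proteins that bind CD44, cut it or tie it to the cytoskeleton were listed together with the splicing regulators ESRP1 and ESRP2. Of 17 listed symbols 16 matched a row, 2 higher and 14 lower in high prolific sows, whereas 49.6% of all genes lay higher. The median log2 fold change was -0.12, with 0 past the adjusted threshold. The 14 included ESRP1 (-0.028) and NF2 (-0.0094), named after their values were seen. In 3 of the 16 the groups did not overlap, against 13.5% of all genes, and these 3 lay lower in high prolific sows. SPP1, osteopontin, a secreted ligand of CD44 and of integrins, was at 394.1, 229.2 and 332.1 in high 1 to high 3 and at 775.9, 890.7 and 1453 in low 1 to low 3 (log2 fold change -1.69 ± 0.30, SE). ADAM17, a membrane protease that sheds surface proteins, was at 1251, 1004 and 1205 against 1364, 2442 and 1890 (-0.68 ± 0.22). MSN, moesin, which links the CD44 tail to actin, was at 6745, 5682 and 6624 against 7024, 8532 and 9588 (-0.39 ± 0.15). The 2 other linkers of that family lay closer between groups, ezrin (EZR) at 12158 ± 1475 against 14620 ± 2033 and radixin (RDX) at 6915 ± 127.6 against 6968 ± 764.9 (SD, n = 3 each); they are named after their values were seen. The adjusted p of SPP1, ADAM17 and MSN with limma were 0.619, 0.619 and 0.625. With low 2 and low 3 left out, ADAM17 was at -0.25 and MSN at -0.15 on the log2 scale.

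**Figure D3:**
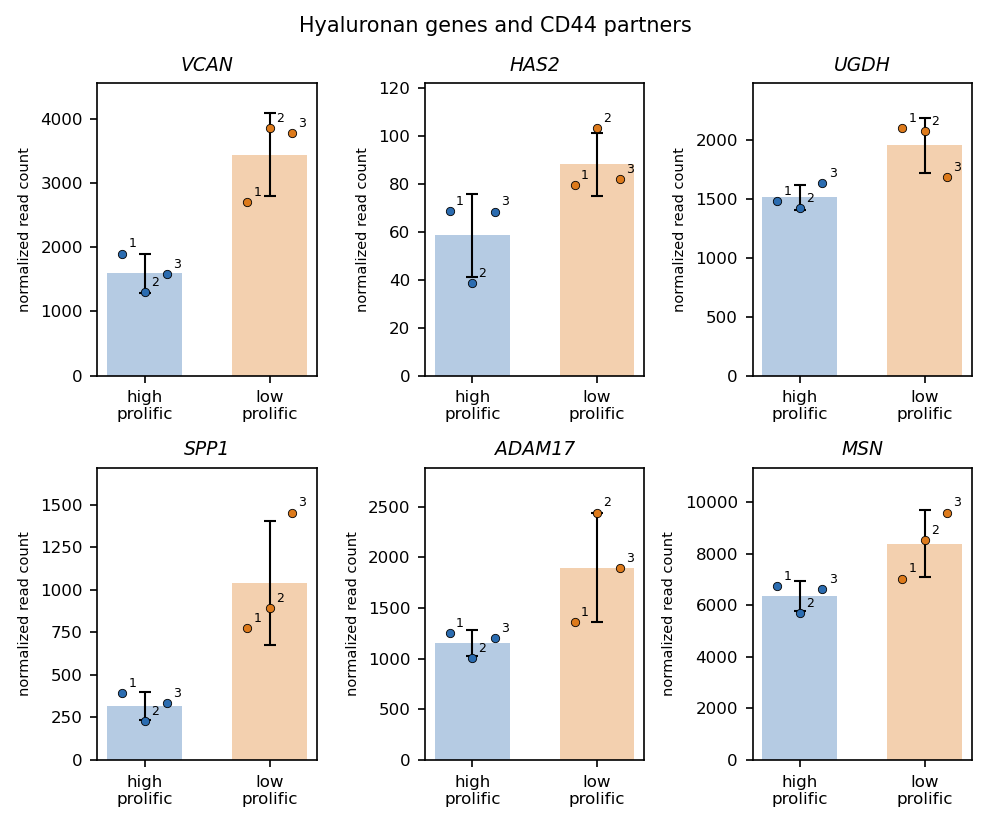
Hyaluronan genes (VCAN, HAS2, UGDH) and CD44 partners (SPP1, ADAM17, MSN), plotted as the normalized read count on a linear axis that starts at 0, with high prolific in blue and low prolific in orange (bar, mean over 3 sows with its SD; numbered point, 1 sow). In each panel all high prolific sows lie below all low prolific ones (VCAN 1592 against 3448 on average). Only genes of this kind are plotted, and HAS2 was chosen after its values were seen. Such genes were 4 of the 16 measured hyaluronan genes and 3 of the 16 CD44 partners, against 6.32% of all genes.

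Other galectins and the glycoproteins that galectins bind were listed together with the autophagy proteins TRIM16 and CALCOCO2. Of 17 listed genes 10 were measured, 5 higher and 5 lower in high prolific sows, with a median log2 fold change of 0.05 and 0 past the adjusted threshold. LAMP2, a heavily glycosylated protein of the lysosomal membrane, was the single gene of the 10 whose groups did not overlap, against 13.5% of all genes. It was at 11728, 12538 and 11478 in high 1 to high 3 and at 8954, 8426 and 10601 in low 1 to low 3 (log2 fold change 0.36 ± 0.13, SE). ITGA5, the alpha chain of the fibronectin receptor, was at 1483 ± 290.2 against 2213 ± 570.9, and LGALS3BP, a secreted glycoprotein that binds galectin-3, at 5307 ± 907.7 against 3677 ± 2492 (SD, n = 3 each). The spread of LGALS3BP came from low 2 (1457) and low 3 (3200), while low 1 (6373) was the highest of all sows. Its log2 fold change, 0.76, turned to -0.28 once low 2 and low 3 were left out. That of ITGA5 went from -0.56 to -0.09 in the same comparison. The adjusted p of the 3 genes with limma were 0.619, 0.633 and 0.704.

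MUC6, a gel-forming secreted mucin, was the single gene with a MUC symbol that matched a row. It was at 423.3, 371.2 and 791.3 in high 1 to high 3 and at 3110, 2149 and 609.2 in low 1 to low 3. Low 1 and low 2 stood above every other sow, while low 3 lay inside the range of the high prolific group. The log2 fold change was -1.68 ± 0.63 (SE, limma adjusted p = 0.623, exact permutation p = 0.2), and it was -2.64 without both low 2 and low 3. Of 10 genes listed for secreted mucins and trefoil factors, AGR2 among them, 4 were measured, 2 higher and 2 lower (median log2 fold change -0.19). In 0 of the 4 were the groups apart, against 13.5% of all genes. That median changed sign with the sows used, from -0.65 without high 1 to 0.084 without high 2 and 0.10 without high 3. AGR2, an endoplasmic reticulum protein needed for mucin folding, spanned 4314 to 14372 among the high and 992.2 to 9409 among the low prolific sows. Its log2 fold change, 1.22, turned to -0.28 once low 2 and low 3 were left out.

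Of 15 other transmembrane mucins and mucin-like proteins of the cell surface 4 were measured, 1 higher and 3 lower, with a median log2 fold change of -0.27 and 0 past the adjusted threshold. MCAM, an adhesion molecule of vessel walls also called MUC18, was at 1175, 1119 and 1489 in high 1 to high 3 and at 1598, 1667 and 2000 in low 1 to low 3. It was the single gene of the 4 whose groups did not overlap, against 13.5% of all genes. Its log2 fold change was -0.48 ± 0.15 (SE, limma adjusted p = 0.619). CD34, a sialomucin of endothelium, was at 1575 ± 527 against 2296 ± 1116, and CD164, a sialomucin of many cell types, at 18770 ± 3549 against 17618 ± 3988 (SD, n = 3 each). For CD34 the log2 fold change, -0.47, turned to 0.29 once low 2 and low 3 were left out. That of CD164 went from 0.10 to -0.06 without low 2 and to -0.03 without high 1.

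Mucin-type O-glycans are the sugar chains of mucins and are also carried by CD44. Of 33 listed enzymes that build them 23 were measured, 8 higher and 15 lower in high prolific sows, with a median log2 fold change of -0.22 and 0 past the adjusted threshold. The groups did not overlap in 10 of the 23, against 13.5% of all genes, 4 higher (GALNT8, GALNT10, GALNT17 and ST6GALNAC4, against 7.18%) and 6 lower (GALNT1, GALNT12, GCNT1, GCNT3, ST3GAL1 and ST6GALNAC2, against 6.32%). ST6GALNAC1, which adds sialic acid to the first sugar of the chain and so makes the sialyl-Tn antigen, was at 1874, 5026 and 5195 in high 1 to high 3 and at 783, 845.7 and 2007 in low 1 to low 3. The groups overlapped through low 3 and high 1, the 2 sows of parity 5. The 2 highest values were in the 2 sows of parity 8, which are both high prolific. Low 1 and low 2 were at parity 7, so among the sows of parity 7 and 8 parity cannot be told apart from group. The log2 fold change of ST6GALNAC1 was 1.73 ± 0.52 (SE), and 1.64 ± 0.56 with parity as a linear covariate.

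ST3GAL1, which caps core 1 chains with sialic acid, was at 563.6, 383.6 and 523.6 in high 1 to high 3 and at 811, 590.5 and 753 in low 1 to low 3. GCNT3, a mucosal enzyme that starts core 2 and core 4 branches, was at 366, 203.5 and 396.6 against 515.5, 946.3 and 446.2. GALNT8 and GALNT17, members of the family whose enzymes start O-glycan chains, had means under the 50 required for naming and were chosen after their values were seen. GALNT8 was at 44.7, 69.1 and 36.1 against 7.97, 13.1 and 8.04, and GALNT17 at 62.4, 80.4 and 57.6 against 19.9, 11 and 4.78. The log2 fold changes were -0.56 ± 0.20 for ST3GAL1, -0.96 ± 0.37 for GCNT3, 2.23 ± 0.37 for GALNT8 and 2.57 ± 0.50 for GALNT17 (SE), and the adjusted p of these and of ST6GALNAC1 lay between 0.619 and 0.629 with limma. With low 2 and low 3 left out the median of the 23 enzymes was -0.02 and the log2 fold change of GALNT17 was 1.69.

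**Figure D4:**
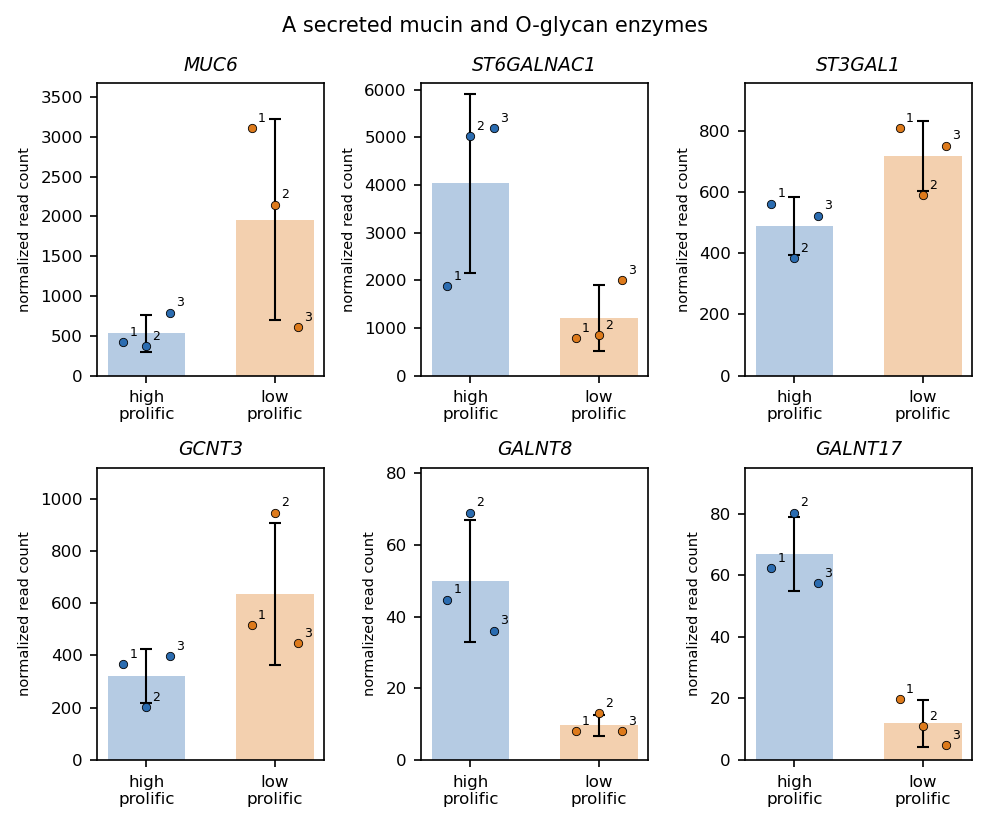
The secreted mucin MUC6 and 5 enzymes of mucin-type O-glycans, plotted as the normalized read count on a linear axis that starts at 0, with high prolific in blue and low prolific in orange (bar, mean over 3 sows with its SD; numbered point, 1 sow). The groups overlap in MUC6 and ST6GALNAC1 and are apart in the other 4 (GALNT8 50 against 9.70 on average). GALNT8 and GALNT17 were chosen after their values were seen, and 13.5% of all genes were apart.

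Galectins bind best to branched N-glycans that carry repeats of galactose and N-acetylglucosamine. Of 21 listed enzymes of these chains 19 were measured, 8 higher and 11 lower in high prolific sows, with a median log2 fold change of -0.03. In 0 of the 19 were the groups apart, against 13.5% of all genes. MGAT5, which starts the branch that galectins favour, was at 1936 ± 118.9 against 2347 ± 307.3, B4GALT5, a galactosyltransferase, at 1797 ± 313.4 against 2195 ± 150.8, and B3GNT2, which extends the repeats, at 1253 ± 247.4 against 2331 ± 1297 (SD, n = 3 each). Low 2, at 3807, set B3GNT2 apart, since its other 5 values lay between 1023 and 1810. Their adjusted p with limma lay between 0.646 and 0.654, and with low 2 and low 3 left out MGAT5 went from -0.27 to -0.08 and B3GNT2 from -0.77 to -0.15 on the log2 scale.

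Of 12 listed proteoglycans of the membrane, mainly of the heparan sulfate class, 10 were measured, 3 higher and 7 lower. Their median log2 fold change was -0.23, with 0 past the adjusted threshold. SDC3, syndecan-3, was at 501.3, 627.4 and 488.4 in high 1 to high 3 and at 754.7, 880.6 and 683.8 in low 1 to low 3 (log2 fold change -0.52 ± 0.15, SE, limma adjusted p = 0.619). It was the single gene of the 10 whose groups did not overlap, against 13.5% of all genes. CSPG4, a chondroitin sulfate proteoglycan of pericytes, was at 469.3 ± 131 against 675.7 ± 166.6 and SDC1, the syndecan of epithelia, at 728.6 ± 226 against 1077 ± 429.5 (SD, n = 3 each), both with overlapping groups. Their log2 fold changes went from -0.53 to -0.23 and from -0.54 to -0.29 once low 2 and low 3 were left out.

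**Figure D5:**
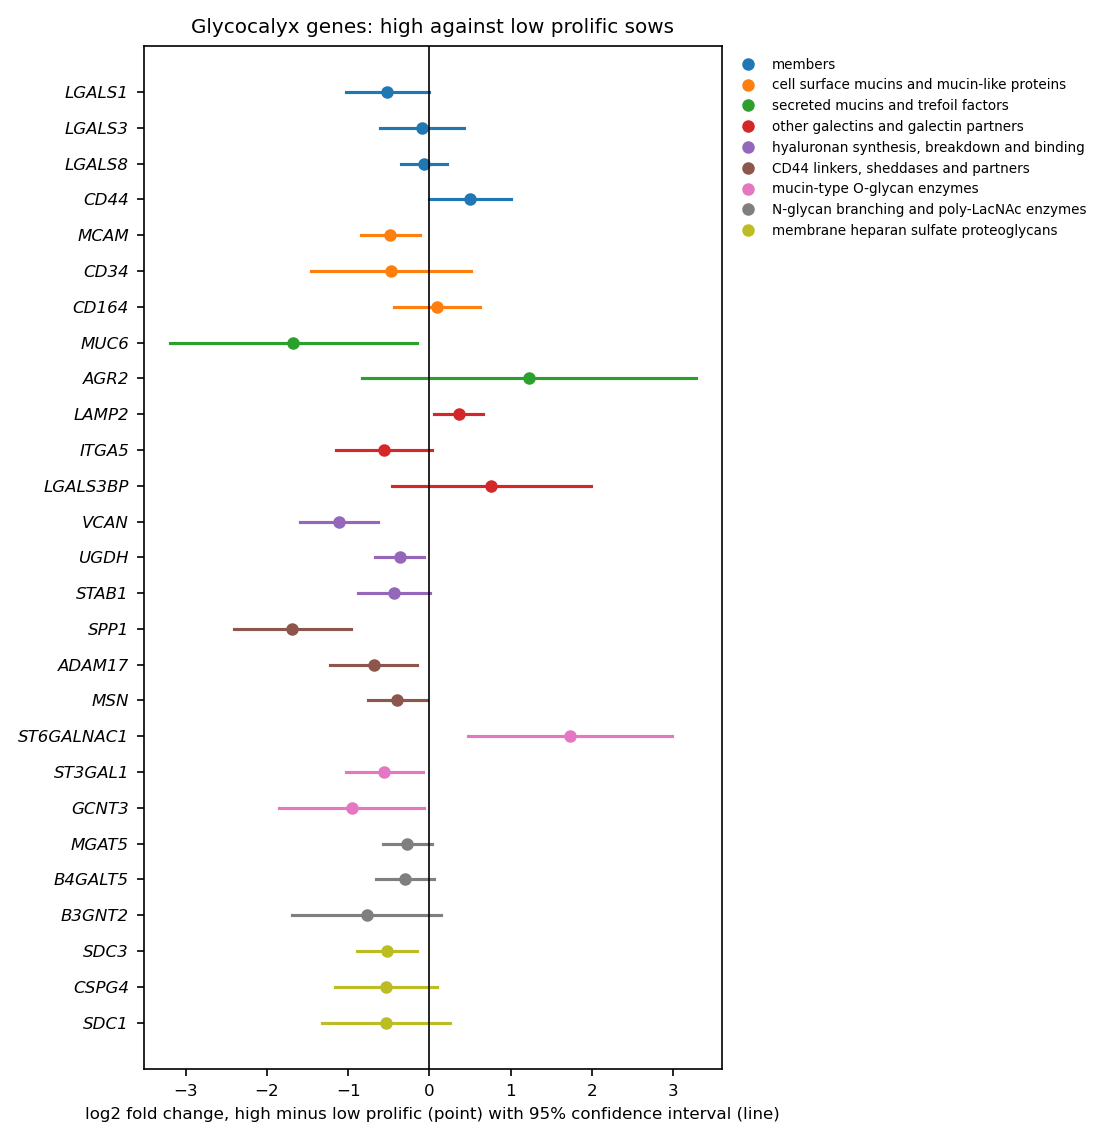
Log2 fold change (point) with its 95% confidence interval (line) of the 4 matched members and of up to 3 genes of each related list, high minus low prolific, so that points left of 0 lie lower in high prolific sows. Colours mark the lists, and the intervals are not adjusted for the number of genes. LGALS8 has the shortest interval of the members (-0.35 to 0.21).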

How the data were processed

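Each of the 6 columns of the table deposited by the authors held a signal, the normalized read count of every gene in 1 library, with no value below 0. Subread 1.6, featureCounts and edgeR are the tools in the submitters' processing notes, with no roles stated; the genome build, annotation, strand setting and kind of normalization are not given in the sources used here, and coordinates are not printed. The share of values below 20 that a single best step per library turned into whole numbers (tolerance 0.1) was 40.5% in high 2 and 100% in high 3, so whole reads were not recovered, no count model was run, and no counting interval is given. The smallest gene mean was 17.6, so low genes had been removed. Symbols came from a table of Ensembl identifiers (11977 matched, 2285 did not); 1 symbol with more than 1 row was not used.

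The comparison used the limma package, version 3.58.1 (R 4.3.3), after log2(value + 1), with eBayes set to trend and robust, and two-sided tests at an adjusted p of 0.05 over 14262 genes. Exact permutation tests used scipy 1.17.1. Named genes were the members, up to 3 genes of smallest p with a mean of at least 50 in each of 8 related and 9 marker lists, and the 2 genes nearest to each member. A result on 1 of these genes is not reported here. Members, lists and rules were chosen with earlier results of these data known. On data simulated for this comparison (14262 genes, 10 runs) the share of changed genes found was 40.1% at 2-fold, 79.6% at 4-fold and 89.7% at 8-fold, with a false share of 4.9% among calls. Each run changed 200 genes and drew normal noise independently for each gene and sow, with the observed spread taken as the true one. Deviations of a sow shared across genes were not simulated, so these shares may not hold for the deposited values. Alternatives changed the pseudocount, the filter, the scaling, the moderation, the library weights, parity, the block and the sows used.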

Additional observations from a re-analysis of the deposited data

How the results depend on the processing

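Over 19 alternatives the adjusted p of each of the 4 members stayed above the threshold (0.326 or more with limma). The log2 fold change of CD44 stayed between 0.37 and 0.70 and that of LGALS1 between -0.71 and -0.26. That of LGALS8 was -0.25 with low 2 and low 3 both left out. Over the single left-out sows LGALS3 ran from -0.30 to 0.036 and LGALS8 from -0.13 to 0.024. The count of all genes past the adjusted threshold ran from 0 to 4 over those left-out sows (4 without low 1, 1 without low 2) and was 0 under every other alternative. The count at an unadjusted p under 0.05 ran from 466 without high 2 to 1872 without low 1, and was 632 without low 2, 631 without both low 2 and low 3 and 615 with the replicate block. Deviations of same-numbered sows from their group means correlated at -0.38, -0.16 and -0.36 across genes, so the numbers were not taken to pair the sows, and the block changed no call. Leaving out low 2 and low 3 together leaves 1 low prolific sow, assumed to vary like the high prolific ones, and the median log2 fold change was 0.20 for the surface mucins, -0.025 for the other galectins and partners, -0.024 for the O-glycan enzymes and -0.17 for the N-glycan enzymes, and the log2 fold changes of CD34, AGR2 and LGALS3BP were 0.29, -0.28 and -0.28. The filters at a mean of 50 or 200 gave -0.023 for the other galectins, since 1 gene fell out. Over the single left-out sows the hyaluronan median ran from -0.22 to -0.032, the O-glycan median from -0.42 to -0.091, and CD164 from -0.060 to 0.27. The cause of these shifts was not tested. The depth is unknown, and 3 sows per group limit the precision.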
